A study of Rattus norvegicus with 9 samples.

Results

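The genes described here encode the extracellular and nuclear core of Wnt signalling, and were measured in the lungs of 7 Wistar rats. They were chosen by name, from the symbols that the array's annotation gives: Wnt ligands, Frizzled receptors, the co-receptors Lrp5 and Lrp6, the secreted inhibitors of the Sfrp and Dkk families and Wif1, the transcription factors Lef1 and those of the Tcf7 name, the scaffold Axin2 and beta-catenin (Ctnnb1). Of 14497 genes with a single symbol on the array, 41 were members, namely 17 ligands, 8 Frizzled receptors, 2 co-receptors, 9 secreted inhibitors and 5 genes that act inside the cell. Wnt7a, Wnt11, Fzd7, Fzd10 and Tcf7l2 match the rule in the current rat annotation and were not analysed here. The group called MetS, for metabolic syndrome, held 3 rats that from weaning drank a 30% sucrose solution as their only liquid, and the control group held 4 rats given water. Both groups ate the same standard chow for 24 weeks, were fasted for 7 hours and were killed by decapitation. The MetS rats are labelled male, whereas no label states the sex of a control, so an effect of sex cannot be told apart from that of the diet. RNA of whole lung tissue was hybridised to a whole-transcript rat gene array that gives each transcript cluster (below, a probe) a single value on a log2 scale, on which a difference of 1 is a 2-fold difference. MetS animal 1 and control animal 1 had 2 arrays each, which were averaged, so that n counts animals.

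Wnt proteins are secreted, lipid-modified ligands that bind a Frizzled receptor together with Lrp5 or Lrp6. In the canonical branch this binding spares beta-catenin from a destruction complex built on Axin and Apc, and beta-catenin then joins TCF and LEF factors on DNA and activates target genes, among them Axin2, which feeds back as an inhibitor. Secreted Frizzled-related proteins and Wif1 bind Wnt ligands outside the cell, whereas Dkk1 and its relatives block the co-receptors. In lung, Wnt2 and Wnt2b specify the organ's progenitors in the embryo, and in the adult Wnt signals from fibroblasts maintain alveolar type 2 cells.

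The table held 28826 probes. The alveolar type 2 markers, 8 of 8 measured and Sftpc among them, had a mean log2 value of 12.21 to 12.25 in MetS and 12.17 to 12.24 in controls. The SD over all probes lay between 1.88 and 1.93 in the MetS animals and was 1.85, 1.77, 1.76 and 1.88 in controls 1 to 4, so that controls 2 and 3 had the narrowest spread of values. Only control 4 reached the MetS range. A fit with this SD as a covariate therefore cannot fully separate the SD from the group. In whole tissue fewer cells of a type and less RNA per cell cannot be told apart.

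No Wnt pathway member passed the test between the groups. With limma, 0 of the 41 members passed an adjusted p of 0.05, as 0% of all probes did, and the adjusted p of the members lay between 0.426 and 0.975. At an unadjusted p under 0.05, 0 members were higher in MetS against 3.82% of all probes, and 0 were lower against 9.91% of all probes. The groups did not overlap for 1 member higher in MetS, the receptor Fzd3, against 4.88% of all probes, and for 0 members lower in MetS against 6.84% of all probes. The smallest unadjusted p among the members in limma was 0.0971, for the receptor Fzd8. The counts moved with single animals, for the members and for all probes. Without MetS animal 1 the groups did not overlap for 6 members higher (14.6%, beside 9.86% of all probes), and 2, Fzd8 and Tcf7, had an unadjusted p under 0.05 (4.88%, beside 3.25%). Without control 1 there were 4 higher without overlap (9.76%, beside 8.45%) and 1 at that p, Fzd8 (2.44%, beside 4.49%). Without control 4 there were 2 higher (4.88%, beside 12.3%) and 1 lower (2.44%, beside 16.4%) without overlap, and at that p 1 higher, Sfrp2 (beside 6.99% of all probes), and 1 lower, Wnt8b (beside 14.4%). Without control 2 the groups did not overlap for 2 members higher (beside 5.62% of all probes), and without MetS animal 3 for 3 lower (7.32%, beside 4082 of the 28826 probes). Without controls 2 and 3 no member had an unadjusted p under 0.05, and the groups did not overlap for 4 higher (9.76%, beside 9.78% of all probes) and 1 lower (2.44%, beside 9.30%). None of these differences between shares was tested.

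The differences were small as well as uncalled. The median difference of the 41 members was 0.02 on the log2 scale, beside 0.04 over all genes with a single symbol, and 26 of them (63.4%) had the higher mean in MetS beside 62.0% of all such genes. Leaving out 1 animal the members' median lay between 0.0050 without control 1 and 0.043 without control 4. The widest differences were those of Sfrp2 at 0.30 and Fzd8 at 0.28 toward higher in MetS and of Wnt8b at -0.18 toward lower. Only 2 of the 41, Sfrp2 and Fzd8, differed by more than 1.2-fold, against 17.6% of all probes and 14.3% of genes with a single symbol. By more than 1.5-fold 0 differed, against 6.00% of all probes and 5.94% of such genes. The 95% intervals of all 41 members held 0 and lay within 2-fold in either direction, and those of 38 lay within 1.5-fold. These bounds hold for the array's scale, on which changes of dim probes are compressed. The 3 dimmest members, Wnt8a, Dkk1 and Dkk2, lay below the 25th percentile of probe means (6.48), and for none of the 41 is a detection call used here.

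**Figure D1:**
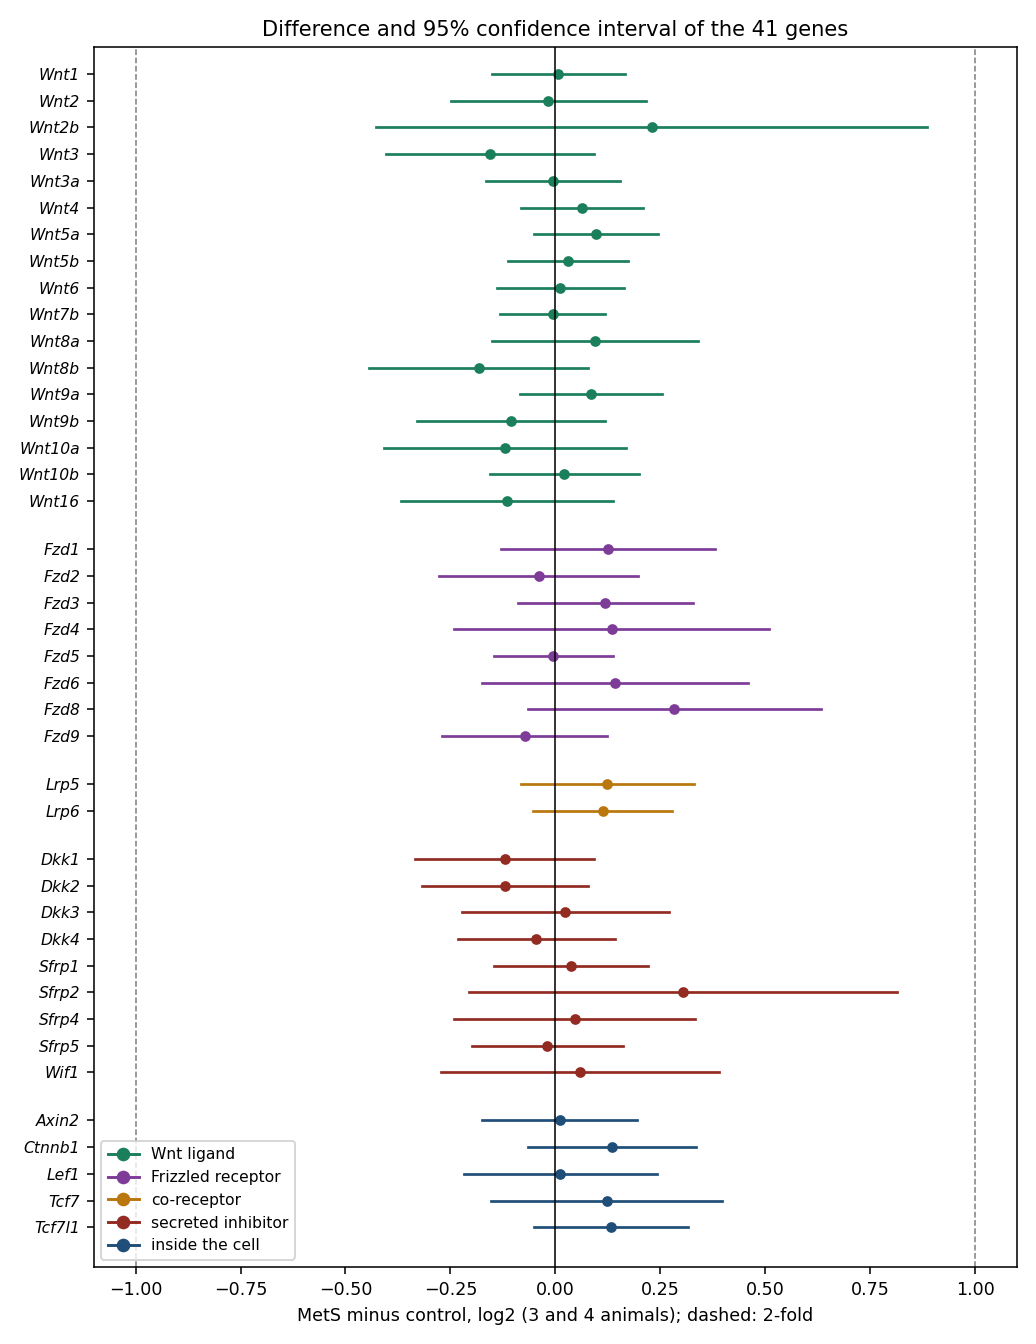
MetS minus control difference on the log2 scale (x axis) of the 41 genes (y axis), coloured by role, with the 95% confidence interval of the limma fit (3 MetS and 4 control animals) as a line; the dashed lines mark 2-fold. Every interval holds 0 and none reaches 2-fold, with the widest around Wnt2b and Sfrp2.

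Among the 17 Wnt ligands, 9 had the higher mean in MetS and 8 the lower, with a median difference of 0.01 and a range from -0.18 to 0.23. Wnt2, a ligand of lung mesenchyme, read 8.41, 8.28 and 8.22 in MetS animals 1 to 3 and 8.38, 8.35, 8.10 and 8.46 in controls 1 to 4. The groups overlapped and their means differed by -0.02 (95% interval -0.25 to 0.21, limma adjusted p = 0.943). Wnt5a, the main ligand of the non-canonical branch, read 7.12, 7.16 and 7.23 in MetS animals 1 to 3 and 7.00, 7.15, 7.05 and 7.10 in controls 1 to 4. All 3 MetS values lay above those of 3 controls, but control 2 lay among them, and the difference was 0.10 (95% interval -0.05 to 0.24, adjusted p = 0.497). For Wnt7b, an epithelial ligand, the values were 7.01, 7.05 and 7.07 in MetS animals 1 to 3 and 7.08, 7.03, 7.06 and 7.02 in controls 1 to 4, which overlapped throughout. Wnt3a, a canonical ligand, likewise overlapped throughout, at 8.61, 8.67 and 8.51 in MetS animals 1 to 3 and 8.52, 8.60, 8.68 and 8.60 in controls 1 to 4.

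Wnt2b varied most of all ligands, with 8.58, 7.69 and 8.05 in MetS animals 1 to 3 and 8.45, 7.96, 7.58 and 7.52 in controls 1 to 4. MetS animal 1 and control 1 were the highest, and the difference of 0.23 (95% interval -0.43 to 0.89, adjusted p = 0.707) was smaller than the SD of either group (8.11 ± 0.45 (SD, n = 3) in MetS and 7.88 ± 0.43 (SD, n = 4) in controls). Without MetS animal 1 the difference of Wnt2b was -0.01, and with array weights it was -0.01. The same pair of animals had the highest values of the receptor Fzd6 and of Ctnnb1, which makes 3 of 41 members (7.32%) against 7.10% of all probes. They were also the highest in heart muscle markers, 7 of 8 listed genes measured, whose mean level was 8.65 in MetS animal 1 and 9.67 in control 1, against 7.36 and 7.21 in MetS animals 2 and 3 and 7.06, 7.17 and 6.97 in controls 2 to 4. The cardiac myosin gene Myh6, for one, read 9.61, 7.53 and 7.21 in MetS animals 1 to 3 and 11.13, 7.22, 7.34 and 6.92 in controls 1 to 4. Markers of the pleural surface, 4 of 6 listed genes measured, were highest in these animals too, with 10.27 in MetS animal 1, 9.94 in control 1 and between 9.40 and 9.80 in the other 5. Macrophage markers, 9 of 9 listed genes measured, were also highest in this pair, with 9.17 in MetS animal 1 and 9.04 in control 1. The other 5 animals lay between 8.69 and 8.97. The part of any of these marker lists in the Wnt2b values was not tested. MetS animal 1 and control 1 are the animals with 2 arrays, on which Wnt2b differed by -0.13 and -0.15 between the second and the first array.

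The ligands with the widest differences toward lower in MetS were Wnt8b and Wnt3. Wnt8b, known from the developing brain, read 6.55, 6.77 and 6.78 in MetS animals 1 to 3 and 6.84, 6.94, 7.09 and 6.68 in controls 1 to 4, a difference of -0.18 (adjusted p = 0.474). Wnt3, a canonical ligand, read 7.07, 6.85 and 7.13 in MetS animals 1 to 3 and 7.02, 7.27, 7.32 and 7.08 in controls 1 to 4, a difference of -0.16 (adjusted p = 0.509). In both genes controls 2 and 3 were the 2 highest animals and the other controls lay within or near the MetS values. Without controls 2 and 3 the differences were -0.06 and -0.03. In any gene, leaving these 2 out must raise the difference where they are the highest animals and lower it where they are the lowest. Such a move is no test of these controls. With that SD over all probes as a covariate in the fit the differences of Wnt8b and Wnt3 turned to 0.08 and 0.03.

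The remaining 10 ligands had differences between -0.12 for Wnt10a and 0.09 for Wnt8a, and their groups overlapped. Wnt16, for which controls 2 and 3 were the 2 highest animals, went from -0.12 to 0.02 without them. In the rat annotation 4 pairs of Wnt members are next to each other among protein-coding genes, Wnt1 with Wnt10b on chromosome 7, Wnt6 with Wnt10a on chromosome 9, and Wnt3 with Wnt9b and Wnt3a with Wnt9a on chromosome 10. The differences within a pair were 0.0075 and 0.02 for the first pair, 0.01 and -0.12 for the pair of Wnt6, -0.16 and -0.11 for the pair of Wnt3, and -0.0059 and 0.08 for the pair of Wnt3a. None of these 8 genes was called. Both genes of the Wnt1 pair had the higher mean in MetS and both of the Wnt3 pair the lower, while the genes of the other pairs differed in direction.

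Of the 8 Frizzled receptors 5 had the higher mean in MetS and 3 the lower, with a median difference of 0.12. Fzd8 had the widest, with 8.12, 8.54 and 8.44 in MetS animals 1 to 3 and 8.38, 8.03, 7.85 and 8.07 in controls 1 to 4. MetS animals 2 and 3 were the highest of the 7, but MetS animal 1 lay below control 1 and near control 4, and the means were 8.37 ± 0.22 (SD, n = 3) in MetS and 8.08 ± 0.22 (SD, n = 4) in controls, a difference of 0.28 (95% interval -0.07 to 0.63, adjusted p = 0.426). Controls 2 and 3 were the 2 lowest animals for Fzd8, and without them, which must lower it, the difference was 0.14. Fzd3, a receptor of the planar polarity branch, was the only member whose groups did not overlap, at 7.89, 7.90 and 7.92 in MetS animals 1 to 3 and 7.82, 7.88, 7.57 and 7.88 in controls 1 to 4. The lowest MetS animal lay only just above controls 2 and 4, and control 3 stood far below the other controls. An array of MetS animal 1 held the very value of controls 2 and 4, so that with its arrays kept apart the groups overlapped. The difference was 0.12 (95% interval -0.09 to 0.33, adjusted p = 0.542), and it became 0.06 without controls 2 and 3 and 0.01 with the SD covariate.

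Fzd4, the receptor for Norrin in blood vessels, read 10.63, 10.46 and 11.12 in MetS animals 1 to 3 and 10.57, 10.48, 10.56 and 10.79 in controls 1 to 4. MetS animal 3 was the highest of the 7, the other 6 lay between 10.46 and 10.79, and the difference was 0.13 (95% interval -0.24 to 0.51). Fzd6, a second receptor of the planar polarity branch, read 9.22, 8.91 and 8.80 in MetS animals 1 to 3 and 9.11, 8.70, 8.77 and 8.76 in controls 1 to 4, with MetS animal 1 and control 1 highest. The difference of Fzd6 was 0.14 (95% interval -0.17 to 0.46) and turned to -0.03 with the SD covariate. For Fzd1 the values were 8.03, 8.22 and 8.32 in MetS animals 1 to 3 and 8.26, 7.96, 7.91 and 8.13 in controls 1 to 4. The groups overlapped, controls 2 and 3 were the lowest, and the difference of 0.13 became -0.002 without these 2 controls. Fzd2, Fzd5 and Fzd9 differed by -0.04, -0.0049 and -0.07.

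Both co-receptors had the higher mean in MetS, without passing the test. Lrp5 read 9.68, 9.73 and 9.76 in MetS animals 1 to 3 and 9.68, 9.68, 9.39 and 9.65 in controls 1 to 4. Control 1 and control 2 were level with MetS animal 1, and control 3 was the lowest. Lrp6 read 10.80, 10.85 and 10.93 in MetS animals 1 to 3 and 10.77, 10.69, 10.67 and 10.86 in controls 1 to 4, with control 4 inside the MetS values. The differences were 0.12 (95% interval -0.08 to 0.33, adjusted p = 0.525) for Lrp5 and 0.11 (95% interval -0.05 to 0.28, adjusted p = 0.485) for Lrp6. They became 0.06 and 0.04 without controls 2 and 3, and 0.03 and 0.02 with the SD covariate.

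**Figure D2:**
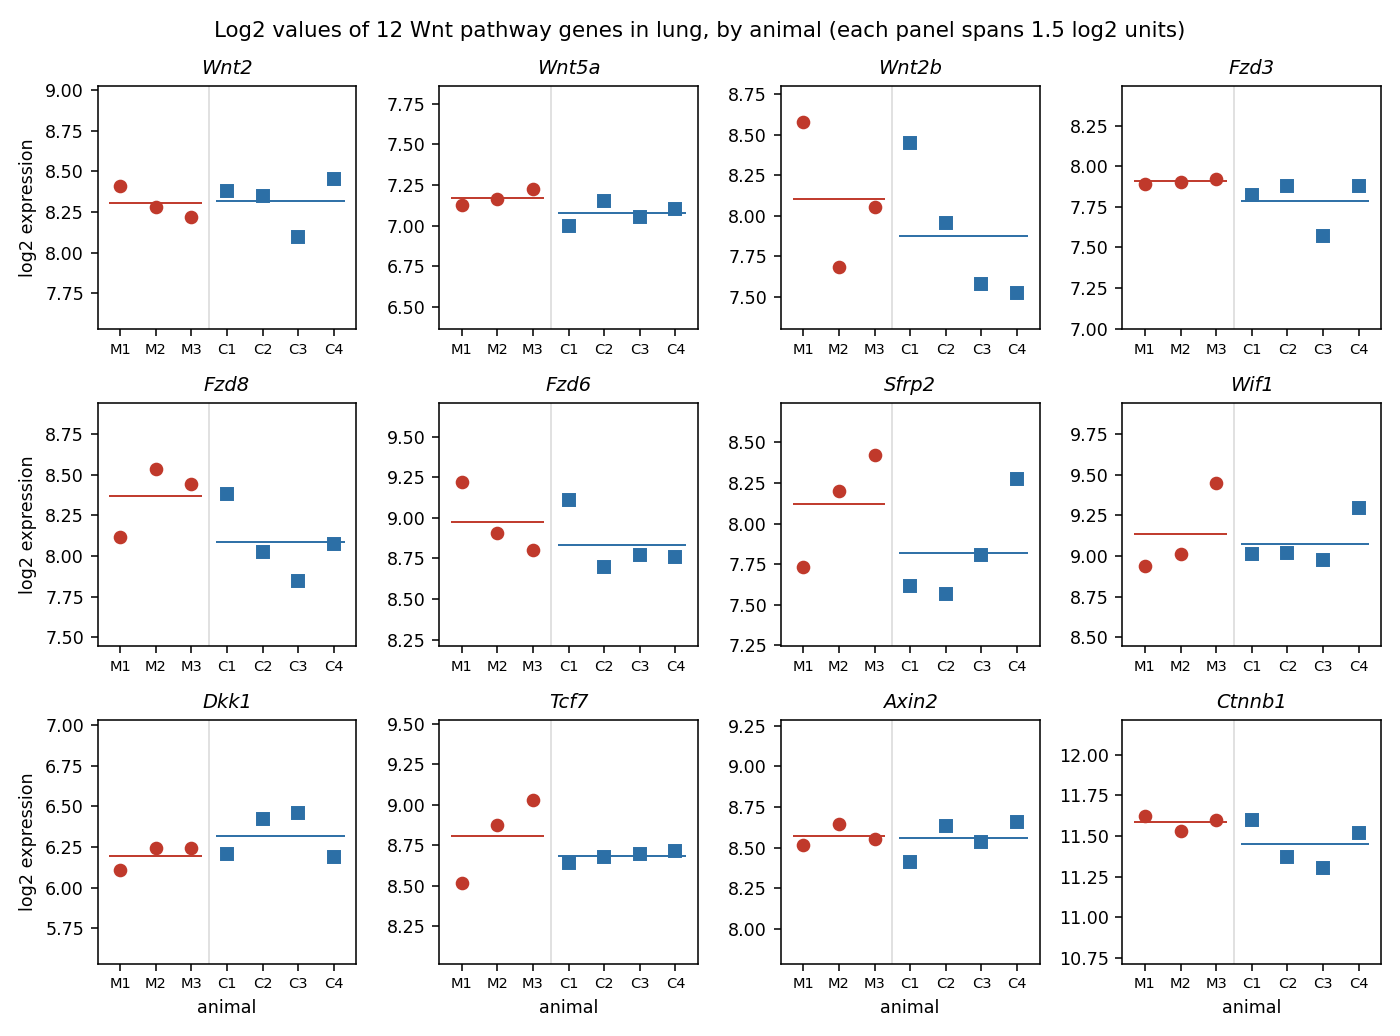
Log2 expression (y axis) of 12 members in each animal (x axis; M1 to M3 are MetS animals 1 to 3, red circles, and C1 to C4 controls 1 to 4, blue squares), with a line at each group's mean; every panel spans the same range on the log2 scale. The groups overlap in every panel but that of Fzd3, and the spread between animals is widest for Wnt2b and Sfrp2.

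Secreted inhibitors were 5 higher and 4 lower, with a median difference of 0.02. Sfrp2, which binds Wnt ligands and is made by fibroblasts, had the widest difference of all members, with 7.73, 8.20 and 8.42 in MetS animals 1 to 3 and 7.62, 7.57, 7.81 and 8.27 in controls 1 to 4. MetS animals 2 and 3 and control 4 were high and the other 4 low, so that the groups overlapped and the difference of 0.30 (95% interval -0.21 to 0.81, adjusted p = 0.53) was smaller than the SD of either group (8.12 ± 0.35 (SD, n = 3) in MetS and 7.82 ± 0.32 (SD, n = 4) in controls). The mean level of 18 measured mesenchyme markers of 19 listed was 8.80 to 8.90 in MetS and 8.79 to 8.86 in controls, and its part in the Sfrp2 values was not tested. At an unadjusted p under 0.05 in limma, 1 of these markers was higher and 1 lower, beside 3.82% and 9.91% of all probes. The higher one, Tcf21, differed by 0.27 without overlap (limma adjusted p = 0.324). Of the 18 markers 11 had the higher mean in MetS and 7 the lower, with differences from -0.28 to 0.27. Sfrp1 read 6.67, 6.58 and 6.58 in MetS animals 1 to 3 and 6.43, 6.58, 6.58 and 6.71 in controls 1 to 4, a difference of 0.04 with full overlap. Sfrp4 and Sfrp5 differed by 0.05 and -0.02.

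Wif1, which holds Wnt ligands away from their receptors, read 8.94, 9.01 and 9.45 in MetS animals 1 to 3 and 9.01, 9.02, 8.97 and 9.30 in controls 1 to 4. MetS animal 3 and control 4 were the highest, 1 in each group, and the difference was 0.06 (95% interval -0.27 to 0.39). Of the 4 Dkk genes, 3 had the lower mean in MetS. Dkk1, which blocks Lrp5 and Lrp6, read 6.11, 6.24 and 6.24 in MetS animals 1 to 3 and 6.20, 6.42, 6.46 and 6.19 in controls 1 to 4, a difference of -0.12 (adjusted p = 0.546). Controls 2 and 3 were again the highest for Dkk1, while controls 1 and 4 lay within the MetS range. Without controls 2 and 3 the difference of Dkk1 was 0.000136, and with the SD covariate it was 0.09. Dkk2 read 6.20, 6.35 and 6.44 in MetS animals 1 to 3 and 6.58, 6.46, 6.38 and 6.38 in controls 1 to 4, a difference of -0.12 (95% interval -0.32 to 0.08, adjusted p = 0.521) that was -0.15 without those controls. Dkk3, a distant relative whose action on Wnt signalling is debated, read 8.50, 8.54 and 8.57 in MetS animals 1 to 3 and 8.66, 8.31, 8.41 and 8.67 in controls 1 to 4. Its difference of 0.02 turned to -0.13 without controls 2 and 3, the lowest of the 7. Dkk4 differed by -0.05.

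Inside the cell all 5 members had the higher mean in MetS, and 0 of the 5 passed the test. Ctnnb1, the signalling protein itself, read 11.63, 11.53 and 11.60 in MetS animals 1 to 3 and 11.60, 11.37, 11.30 and 11.52 in controls 1 to 4. The MetS animals lay close together and control 1 lay with them, and the difference of 0.14 (95% interval -0.06 to 0.34, adjusted p = 0.487) became 0.02 without controls 2 and 3 and turned to -0.02 with the SD covariate. Axin2, the target gene most used as a readout of canonical signalling, read 8.51, 8.65 and 8.55 in MetS animals 1 to 3 and 8.41, 8.63, 8.54 and 8.66 in controls 1 to 4. It overlapped throughout, with means of 8.57 ± 0.07 (SD, n = 3) in MetS and 8.56 ± 0.11 (SD, n = 4) in controls and a difference of 0.01 (95% interval -0.17 to 0.20, adjusted p = 0.957).

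Lef1 read 7.74, 7.82 and 8.11 in MetS animals 1 to 3 and 7.84, 7.85, 7.97 and 7.85 in controls 1 to 4. MetS animal 3 was the highest and MetS animal 1 the lowest of the 7, and the difference was 0.01 (95% interval -0.22 to 0.24). Tcf7, like Lef1 a factor of T cells as well as of Wnt signalling, read 8.52, 8.87 and 9.03 in MetS animals 1 to 3 and 8.64, 8.68, 8.70 and 8.72 in controls 1 to 4. The controls of Tcf7 lay within 0.08 of each other, while MetS animal 1 was below and MetS animals 2 and 3 above all of them, for a difference of 0.12 (95% interval -0.15 to 0.40, adjusted p = 0.63). T and NK cell markers, 12 of 12 measured, had mean levels of 8.28, 8.90 and 8.73 in MetS animals 1 to 3 and 8.47 to 8.68 in controls, so that MetS animal 1 was lowest and the other MetS animals highest there too. The same order held in lists given below that are not of T cells. Wnt target genes, Tcf7 among them, had means of 8.31, 8.45 and 8.49 in MetS animals 1 to 3 and 8.38 to 8.42 in controls. Wnt inhibitors outside the rule had 7.91, 8.07 and 8.09 in MetS animals 1 to 3 and 7.96 to 8.05 in controls. The part of T and NK cells in the Tcf7 values was not tested.

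Tcf7l1, a factor that mostly represses, was the only member with several probes, and its 3 probes did not read alike. The brightest, which stood for the gene, read 8.92, 9.04 and 9.05 in MetS animals 1 to 3 and 8.87, 8.72, 8.96 and 8.93 in controls 1 to 4, with overlap and a difference of 0.13 (95% interval -0.05 to 0.32, adjusted p = 0.463). The next brightest read 8.32, 8.55 and 8.30 in MetS animals 1 to 3 and 8.26, 7.80, 7.80 and 8.24 in controls 1 to 4, without overlap. Its difference was 0.36 (95% interval 0.02 to 0.71, limma unadjusted p = 0.0418, adjusted p = 0.354). This interval does not hold 0, but the counts over members rest on the brightest probe. The dimmest probe differed by 0.04. In the middle probe controls 2 and 3 were the lowest, and its difference became 0.14 without them and 0.04 with the SD covariate.

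Promoters are shown for 4 genes of the feedback loop, since these members are known targets of beta-catenin with TCF. The sequences are from RefSeq, assembly GRCr8, which holds a promoter of 250 bases before to 50 after the start for 28 of the 41 members. They were searched on both strands for the TCF and LEF core in 4 spellings, CTTTGAA or CTTTGAT or CTTTGTA or CTTTGTT, none of which overlapped another in these promoters. A match was found in 6 of the 28 (21.4%), Wnt3, Wnt8a, Dkk1, Sfrp5, Axin2 and Tcf7, beside 17.1% of the 33469 promoters in the table. In the lines below each match is in capitals, 5′ to 3′ on the gene's strand. They are Axin2 (chr10:94398535-94398834, plus strand), with matches that start at -232 and -132 from the start site, Dkk1 (chr1:237798601-237798900, minus strand), at -96 and -77, Tcf7 (chr10:36954230-36954529, minus strand), at -4, and Lef1 (chr2:222340463-222340762, plus strand), with no match in this window.
Axin2: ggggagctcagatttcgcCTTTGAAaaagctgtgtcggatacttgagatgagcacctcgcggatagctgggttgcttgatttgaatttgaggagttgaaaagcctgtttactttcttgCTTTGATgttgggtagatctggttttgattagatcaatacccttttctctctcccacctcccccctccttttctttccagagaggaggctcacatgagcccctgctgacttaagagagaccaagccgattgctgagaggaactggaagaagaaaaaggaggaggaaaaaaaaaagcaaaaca
Dkk1: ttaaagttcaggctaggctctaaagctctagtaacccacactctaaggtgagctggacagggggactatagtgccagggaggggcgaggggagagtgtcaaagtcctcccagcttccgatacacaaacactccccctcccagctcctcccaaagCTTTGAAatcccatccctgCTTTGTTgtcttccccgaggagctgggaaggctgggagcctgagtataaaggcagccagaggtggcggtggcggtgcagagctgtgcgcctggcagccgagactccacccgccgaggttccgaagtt
Tcf7: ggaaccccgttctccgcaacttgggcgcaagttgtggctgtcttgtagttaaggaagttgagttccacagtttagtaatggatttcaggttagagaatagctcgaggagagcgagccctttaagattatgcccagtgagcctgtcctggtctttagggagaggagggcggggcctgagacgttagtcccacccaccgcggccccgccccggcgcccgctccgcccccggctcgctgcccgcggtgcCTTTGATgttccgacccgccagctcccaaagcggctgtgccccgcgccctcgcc
Lef1: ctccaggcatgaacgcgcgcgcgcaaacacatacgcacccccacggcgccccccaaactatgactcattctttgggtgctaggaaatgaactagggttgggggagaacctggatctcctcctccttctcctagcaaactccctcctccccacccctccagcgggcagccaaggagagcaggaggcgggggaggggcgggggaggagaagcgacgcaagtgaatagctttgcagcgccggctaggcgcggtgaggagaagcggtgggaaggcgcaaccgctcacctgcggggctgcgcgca

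The 6 genes with a match differed by -0.16 for Wnt3, 0.09 for Wnt8a, -0.12 for Dkk1, -0.02 for Sfrp5, 0.01 for Axin2 and 0.12 for Tcf7, 3 higher and 3 lower in MetS. A match is a description of these letters and not a binding site. Beyond the promoters, a list of 23 genes induced by Wnt signalling in several tissues had 19 measured, 4 of them members, with 13 higher and 6 lower in MetS, a median difference of 0.01 and 0 at an unadjusted p under 0.05 in limma. Nkd1, a feedback inhibitor, read 9.72, 10.27 and 10.03 in MetS animals 1 to 3 and 9.83, 9.93, 9.77 and 10.04 in controls 1 to 4, the cell cycle gene Ccnd1 10.48, 10.75 and 11.12 in MetS animals 1 to 3 and 10.77, 10.73, 10.66 and 10.78 in controls 1 to 4, and the transcription factor gene Myc 7.66, 7.88 and 7.89 in MetS animals 1 to 3 and 7.98, 7.82, 7.41 and 7.85 in controls 1 to 4. All 3 overlapped, and their differences were 0.12, 0.05 and 0.04.

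The pathway genes outside the rule were taken in 5 lists, whose genes named here were picked for their roles after their values had been seen. Of the 73 genes measured 0 had an unadjusted p under 0.05 in limma, beside 3.82% of all probes higher and 9.91% lower. Agonists and the secretion machinery had 5 higher and 5 lower of 10, with a median of -0.0075. Wls, which carries Wnt proteins to the cell surface, differed by 0.08, Porcn, which attaches their lipid, by 0.12, and the R-spondins Rspo1, Rspo2 and Rspo3 by 0.10, -0.17 and -0.18. Inhibitors outside the rule had 8 higher and 5 lower of 13, with a median of 0.06.

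In 3 of these 5 lists the share of genes with the higher mean in MetS was above that of all genes with a single symbol. This was not tested for a list as a whole. All 18 measured cytoplasmic genes had the higher mean in MetS, with a median difference of 0.08, as had 16 of 17 nuclear co-factors with 0.10, and 12 of 15 genes of the planar polarity and calcium branch with 0.11, beside 62.0% and 0.04 over all genes with a single symbol. Among the cytoplasmic genes Gsk3b, the kinase of the destruction complex, read 10.66, 10.64 and 10.77 in MetS animals 1 to 3 and 10.62, 10.57, 10.59 and 10.64 in controls 1 to 4, without overlap and with a difference of 0.09 (adjusted p = 0.515). For Gsk3b MetS animal 2, at 10.642, lay only just above control 4, at 10.637. Apc, a scaffold of the destruction complex, differed by 0.14 and Csnk1a1, its priming kinase, by 0.12. With the SD over all probes as a covariate, the number higher fell to 10 of 18 for the cytoplasmic list, with a median of 0.01, to 7 of 17 for the nuclear list, with a median of -0.0071, and to 10 of 15 for the planar polarity and calcium list, with a median of 0.04, while the median of all genes with a single symbol went to -0.003. Without controls 2 and 3 there were 12 of 18, 14 of 17 and 13 of 15 higher, with medians of 0.03, 0.03 and 0.07, beside 0.0099 over all such genes.

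**Figure D3:**
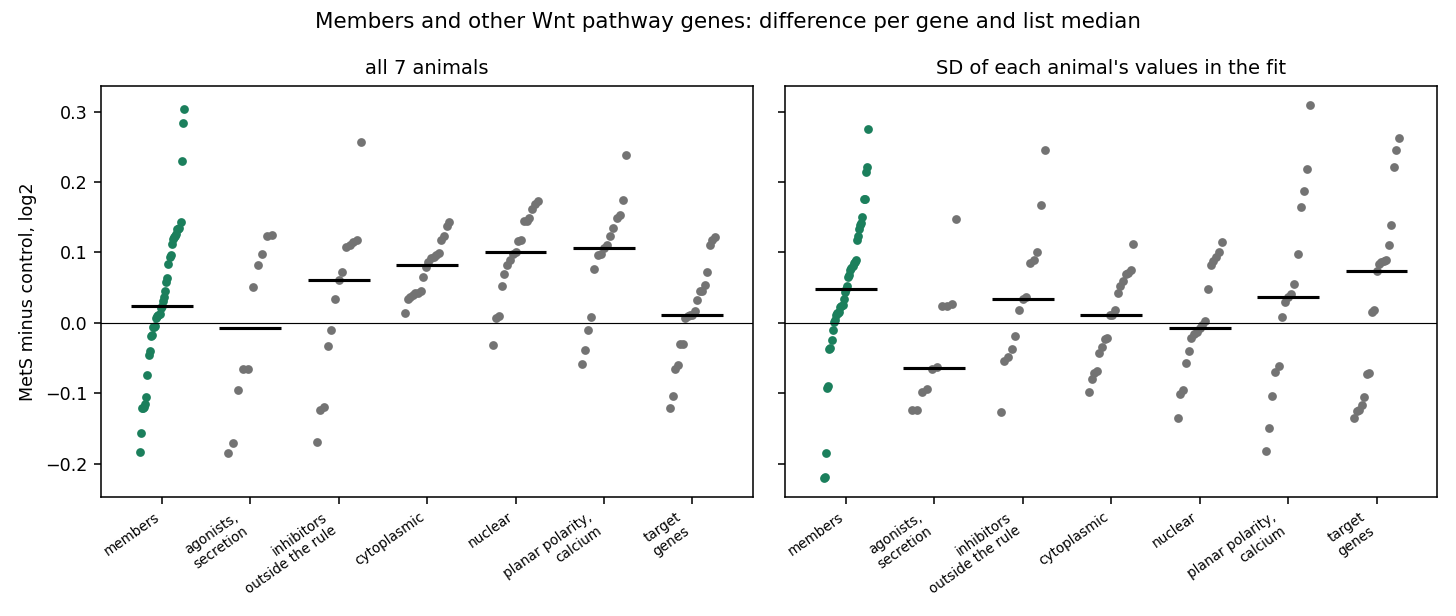
MetS minus control difference on the log2 scale (y axis) of each gene (points) in the 41 members and in 6 lists of other Wnt pathway and target genes (x axis; 4 target genes are also members, and 4 stand in another list), with the list median as a line, in the fit of all 7 animals (left) and with the SD over all probes as a covariate (right). The cytoplasmic and nuclear medians of 0.08 and 0.10 at left are 0.01 and -0.0071 at right.

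Controls 2 and 3 were the 2 lowest animals for 5 members (12.2%), Fzd1, Fzd8, Lrp6, Dkk3 and Ctnnb1, beside 18.4% of all probes and 24.3% of genes with a single symbol. They were the 2 highest for 4 (9.76%), Wnt3, Wnt8b, Wnt16 and Dkk1, beside 23.1% of all probes and 18.3% of such genes. The difference between these shares was not tested. With the SD covariate 16 of the 41 differences changed sign and 32 members had the higher value in MetS. The members' median was 0.05, beside -0.003 over all genes with a single symbol. The SD was mostly higher in MetS, so its part and that of the group cannot be fully told apart in this fit. Without controls 2 and 3, 9 changed sign and 27 were higher. The shares of all genes with a single symbol that were higher or changed sign in these fits are not given here. Wnt2, at -0.02 in the fit of all animals, went to -0.22 with the covariate, and Tcf7 from 0.12 to 0.22. No member had an unadjusted p under 0.05 in either of these fits (limma).

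**Figure D4:**
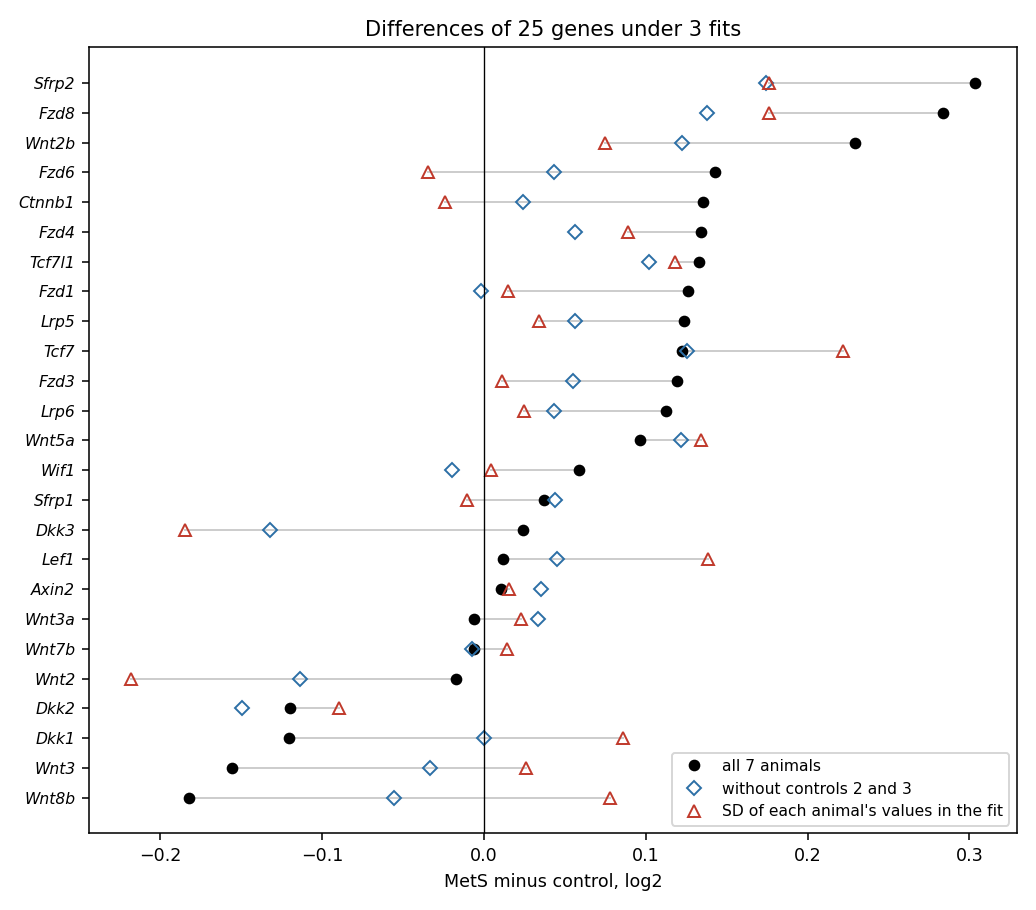
MetS minus control difference on the log2 scale (x axis) of the 25 members given with every value (y axis, sorted), in the fit of all 7 animals (black), without controls 2 and 3 (blue diamonds) and with the SD over all probes as a covariate (red triangles); grey lines join the first and the last. Sfrp2, Fzd8 and Wnt2b keep their direction at a smaller size, whereas Wnt8b, Wnt3 and Dkk1 change sign with the covariate.

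Many members had the very same value in several animals. To all 9 decimals of the table, at least 2 animals shared a value on an array in 24 of the 41 members (58.5%), beside 39.1% of all probes, and at least 3 animals did in 11 (26.8%), beside 18.0%. Wnt1, Wnt3a, Wnt4, Fzd5, Fzd9 and Sfrp1 each had 1 value in 4 animals. The part of such ties in the SDs and intervals was not tested. They were absent from 17 members, among them Wnt2, Wnt2b, Fzd1, Fzd6, Fzd8, Lrp6, Sfrp2, Wif1, Axin2, Ctnnb1, Tcf7 and Tcf7l1.

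The repeated arrays give the spread of the measurement itself. Between the 2 arrays of MetS animal 1 the members differed by a median of 0.05 in size, and between those of control 1 by 0.06, beside 0.06 and 0.08 over all probes. Set against the gene's own differences between repeated arrays, the group difference was wider than both for 19 of 41 members (46.3%), beside 50.1% of all probes. For Wnt16 the arrays differed by -0.28 and 0.32, more than its group difference of -0.12. For Sfrp2 they differed by -0.21 and -0.06, less than its group difference of 0.30.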

How the data were processed

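Total RNA from lungs of 7 rats was measured on 9 arrays. The deposited table holds log2 expression values, and the submitters' processing notes list RMA, limma and R 2.11.0 without role or order. The authors' genome build and annotation are not given in the sources used here. Both arrays of MetS animal 1 and of control 1 were averaged. No detection call or intensity was used, and the number of animals limits the precision.

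Groups were compared with limma 3.58.1 (lmFit and eBayes) in R 4.3.3 over all 28826 probes with Benjamini-Hochberg adjustment and a threshold of 0.05. The script was tested on simulated data. A gene took its probe with the highest mean. Of 15209 probes with a single symbol, 15178 matched RefSeq and 31 kept the table's symbol, while 306 had several symbols and 13311 were unnamed here. Every animal's value is given for members at an unadjusted p under 0.05 or without overlap, the 3 of widest difference in each role, and a preset list of well-known members, 25 in all. The members, lists and tests were chosen with earlier results of these data known. In all 19 other settings were run. No label states that animals were independent in litter or cage, and the p-values treat them as independent. If they were not, the p-values could be too small. Tables were made with Python 3.11.15, pandas 2.3.3 and numpy 2.4.6, and figures with matplotlib 3.10.9.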

Additional observations from a re-analysis of the deposited data

Results flagged for a closer look

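In 6 of the 41 members a single control lay far from the other 3. Its gap to the nearest of them, divided by the range of the 4 controls, was above Dixon's critical value. In normal data without ties chance gives this mark in about 1 of 20 groups. The share of all probes with the mark was not computed, so the count is not a result about Wnt genes. Control 3 was the animal in 5 of the 6. It was high for Wnt9b, at 8.50 with the next control at 8.23, for Wnt10a, at 7.63 with the next at 7.27, for Fzd9, at 7.73 with the next at 7.47, and for Lef1, at 7.97 with the next at 7.85. It was low for Lrp5, at 9.39 with the next at 9.65. Control 4 was high for Wif1, at 9.30 with the next at 9.02. In Wnt9b, Fzd9 and Lef1, controls 2 and 4 held exactly the same value, and in Lrp5 control 2 and an array of control 1 did. The part of these ties in the gaps was not tested.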

How the results depend on the processing

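Under the 19 other settings, members with the higher mean in MetS numbered 22 to 32, and 0 members passed an adjusted p of 0.05 in any. The groups share replicate numbers 1 to 3. The correlations of same-numbered animals, after subtracting each group's mean, were 0.27, -0.12 and 0.34. Those of differently numbered animals reached 0.39 and -0.42. With so few animals these values cannot decide whether the numbers pair them. With the replicate number as a block, in which control 4 has no MetS partner and adds nothing to the difference, 2017 probes passed where 0 had, 0 of them members, and 1 member was higher (Sfrp2, beside 7.65% of all probes) and 1 lower (Wnt8b, beside 15.8%) at an unadjusted p under 0.05.

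Members higher at that p, 0 in the reported fit, were 3 after quantile normalization (Wnt5a, Wnt8a and Wnt10b, 7.32% beside 8.02% of all probes), 1 with the mean of a gene's probes (Tcf7l1, 2.44% beside 4.33% of genes), and 0 to 2 leaving out 1 animal, with 0 to 1 lower. Members higher without overlap, 1 as reported, were 0 over all 9 arrays (2.54% of all probes), 4 without controls 2 and 3, 3 with arrays centred on their median (7.32% beside 5.21%), 2 with the mean of probes (4.88% beside 5.64% of genes), 4 after quantile normalization (9.76% beside 2595 of the 28826 probes) and 1 to 6 leaving out 1 animal. Those lower, 0 as reported, were 1 without controls 2 and 3 and 0 to 3 leaving out 1 animal. The median difference of 0.02 became 0.048 with the SD covariate and 0.064 after quantile normalization, while that of all genes with a single symbol, 0.04 as reported, was -0.0030 and 0.04 there. The members' median lay between 0.0050 and 0.043 leaving out 1 animal, and was 0.045 with array weights and 0.043 with the replicate block. Agonist genes with the higher mean went from 5 to 2 without controls 2 and 3, and with the SD covariate cytoplasmic genes went from 18 to 10 and nuclear ones from 16 to 7. The cause was not tested. The counts of higher means, the shares of all probes under each setting and the other Tcf7l1 probes were added after seeing the data.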

Other observations

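Among the Wnt pathway genes outside the rule, 6 had groups that did not overlap, and they are named here after their values were seen. Of the 73 measured genes 5 were higher and 1 lower in MetS without overlap, where 4.88% and 6.84% of all probes were. Bambi, a decoy receptor of the BMP pathway that also acts in Wnt signalling, was lower in every MetS animal, at 8.31, 8.34 and 8.43 against 8.45, 8.44, 8.66 and 8.58 in controls 1 to 4, a difference of -0.17 (limma adjusted p = 0.381) that was -0.13 with the SD covariate and -0.15 without controls 2 and 3. For Bambi MetS animal 3 lay only just below control 2. The 5 others were higher. Dvl3, which relays the signal from Frizzled, differed by 0.14, Gsk3b by 0.09, the co-repressor Tle4 by 0.12, the Wnt receptor Ryk by 0.15 and the polarity cadherin Celsr2 by 0.10. With the SD covariate these became 0.07, 0.08, 0.09, 0.01 and 0.04. None of the 6 passed an adjusted p of 0.05 in limma.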
